A study of Cavia porcellus with 12 samples.

Results

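The proteasome genes described here are the 44 genes, of 11896 in the deposited table of log2 values, whose symbol starts with PSM, a letter from A to G and a number. Of these, 41 encode subunits, regulators or assembly chaperones of the proteasome, and 3 (PSMC3IP, PSME3IP1 and a numbered copy of it, PSME3IP1.1) are named for proteins that bind a subunit and are kept apart below. No row carried the symbols PSMA2, PSMA6, PSMA8, PSMC3, PSMD12 or PSME2, and these genes were not analysed here. The liver of 12 female Dunkin Hartley guinea pigs, 10 weeks old on arrival, was sequenced. Controls (n = 6) had been fed chow, and animals with nonalcoholic steatohepatitis (NASH, n = 6) a high-fat diet with added sucrose and cholesterol, both for 25 weeks. The animals with NASH had been picked for bridging fibrosis, whereas controls without NASH and fibrosis were drawn at random. Libraries were made from mRNA of unperfused tissue of the left lateral lobe, so that blood cells were part of the sample.

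The proteasome is the main protease of cytosol and nucleus, and it degrades proteins that carry chains of ubiquitin. Its 20S core is a barrel of stacked rings, the outer ones built of alpha subunits, which gate the entry, and the inner ones of beta subunits, of which PSMB5, PSMB6 and PSMB7 cut peptide bonds. The 19S regulatory particle sits on the barrel ends, binds and removes ubiquitin, and unfolds the substrate with a ring of ATPases. Cells exposed to interferon gamma, and most leukocytes at rest, build an immunoproteasome, in which PSMB8, PSMB9 and PSMB10 take the places of PSMB5, PSMB6 and PSMB7 and which favours peptides that fit MHC class I molecules.

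An animal's counts added up to between 16980274 and 33091460, and levels are given as CPM (counts scaled to a common library total) after scaling by edgeR's TMM factors, which ran from 0.801 to 0.873 for controls and from 1.116 to 1.244 for NASH. Under this scaling the log2 fold change of the median gene was −0.01, and with library size alone it was 0.48, so a change is relative to the typical gene of the tissue. Cell type markers also moved between the groups. Of 6 hepatocyte markers, 5 were lower, with summed levels of 102561 to 130976 CPM in controls and 39658 to 65009 CPM in NASH. All 5 leukocyte markers measured, PTPRC among them, were higher (62.6 to 119 CPM against 220.3 to 259.7 CPM), as were 5 of 6 stellate cell, 4 of 4 cholangiocyte and 3 of 3 erythroid markers. The macrophage list was split, with 2 of 5 markers higher and 1 lower, and of 8 T and NK cell markers 1 was higher and 2 were lower. Over all genes, 27.6% were higher and 26.7% lower with TMM, and 63.9% and 7.66% with library size alone. With library size alone the marker counts were 4 higher and 1 lower for macrophages, 2 and 2 for T and NK cells, and 3 lower for hepatocytes. The part of these shifts in the results below was not tested, and in bulk tissue fewer cells of a type and less RNA per cell cannot be told apart.

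Proteasome genes as a group were lower in NASH relative to the typical gene. By edgeR's quasi-likelihood test with Benjamini-Hochberg adjustment over all 11896 genes, 31 of the 44 (70.5%) were lower and 3 (6.82%) higher in NASH, whereas with library size alone 1 was lower and 18 were higher. Over all genes 54.2% were called, 26.7% lower and 27.6% higher, or 71.5% with library size alone (7.66% lower and 63.9% higher). DESeq2 called 32 members lower and 3 higher, where 28.0% and 28.4% of all genes were. The members' median log2 fold change was −0.34 with TMM, and it lay 0.33 below the median gene with library size alone as well. In 23 of the 44, every animal with NASH was below every control in CPM, and in 1, PSMB10, every one was above, where 15.7% and 18.0% of all genes did so (33.7% without overlap in either direction). Of the 27 constitutive subunits of the 20S core and the 19S particle, 25 were lower with TMM, 1 was higher (PSMD13) and 1 was not called (PSMA1). With library size alone, 26 of these 27 still lay below the median gene, although 7 were then called higher and 1 lower. Their changes were small, between −0.75 for PSMB3 and 0.17 for PSMD13. When changes up to 0.5 in size counted as none, 1 of the 44 members passed, where 2663 of all 11896 genes did. When every locus with a count was tested, which moved the median gene to 0.09, PSMA4, PSMB5, PSMB6, PSMC4, PSMD2, PSMD3, PSMD7, PSMD9, PSMF1, PSMG3 and PSMG4 kept their sign and did not pass (adjusted p from edgeR between 0.0689 and 0.489). The members were not at the limit of detection, with at least 168 counts in each animal for every subunit, regulator and chaperone.

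**Figure D1:**
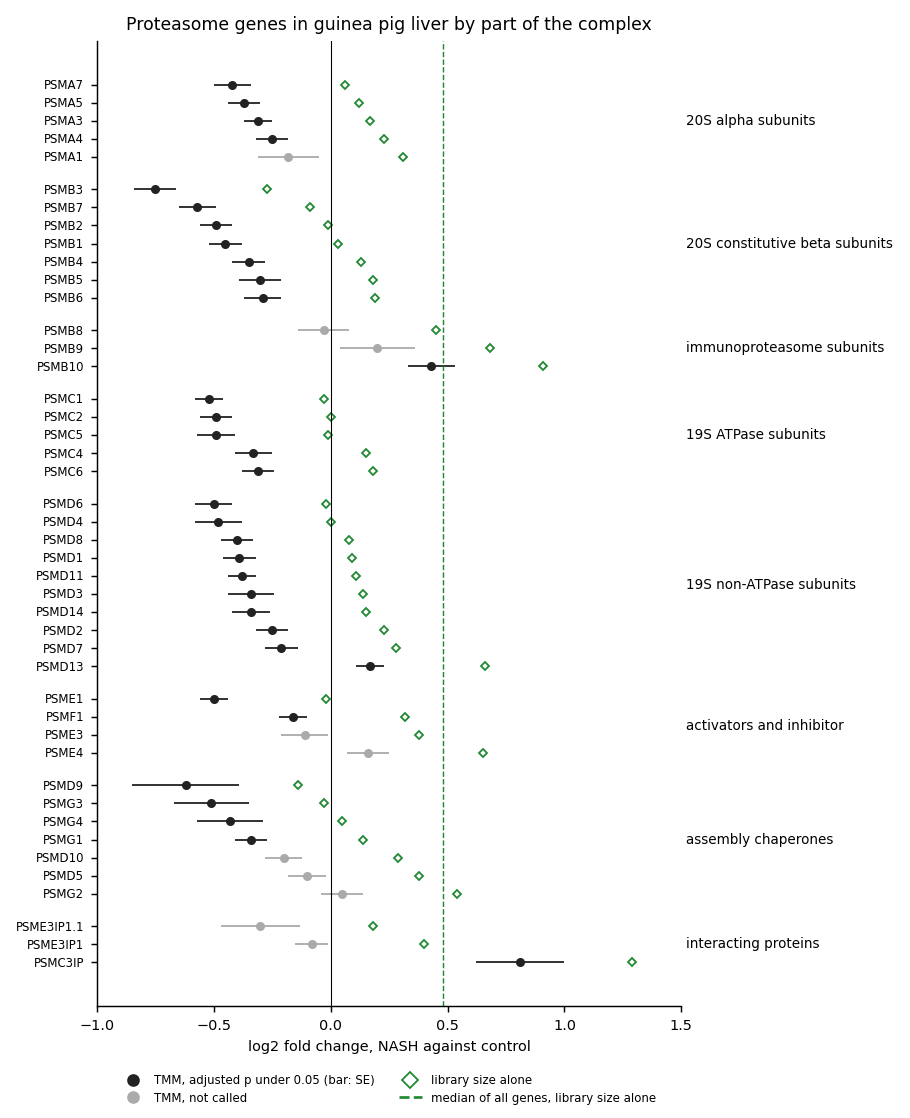
Log2 fold change (NASH against control, horizontal axis) of the 44 genes, grouped by their place in the complex. Filled points with SE bars use TMM scaling (black: called, grey: not called), open diamonds library size alone, and the dashed line marks the median gene under the latter, at 0.48. The constitutive subunits lie left of 0 with TMM, PSMD13 excepted, most of them move right of 0 with library size alone, and PSMB9 and PSMB10 lie to the right of the median gene under both.

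The outer rings of the core were measured through 5 alpha subunits, of which 4 were lower and none was higher with TMM, and 3 were higher with library size alone. PSMA7 had 147, 150.2 and 177 CPM as lowest, median and highest value in controls and 98.3, 117 and 129.8 CPM in NASH. The groups did not overlap (−0.42 on the log2 scale, SE 0.08, adjusted p = 0.0007 from edgeR). PSMA5 fell by 0.37, PSMA3 by 0.31 and PSMA4 by 0.25 on the log2 scale, each without overlap between groups. PSMA1, another ring subunit, ranged over 62.8 to 104 CPM (controls) and 56.8 to 80.6 CPM (NASH). Its log2 fold change of −0.18 was not past the threshold (SE 0.13, adjusted p = 0.276 from edgeR), and with 19.1% it had the largest coefficient of variation in controls among the 27 constitutive subunits.

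In the inner rings all 7 constitutive beta subunits were lower with TMM, although with library size alone only PSMB3 was called, also lower. PSMB3, which has no catalytic site, had 85.9, 95.5 and 122 CPM in controls and 52.0, 56.3 and 66.4 CPM in NASH. Every animal with NASH was below every control, and the level was 0.59 of that in controls (log2 fold change −0.75, SE 0.09, adjusted p = 2.04e-05 from edgeR). It had the lowest log2 fold change of the 44 genes, and with each animal left out in turn its adjusted p was at most 8.72e-05. Among the catalytic subunits, PSMB7, of the trypsin-like site, had 121, 133 and 159 CPM in controls and 84.3, 90.2 and 101 CPM in NASH, without overlap (−0.57, SE 0.08, adjusted p = 4.47e-05 from edgeR). PSMB5, of the chymotrypsin-like site, had 69.0, 80.9 and 92.0 CPM against 57.3, 65.2 and 74.6 CPM, and its groups overlapped (−0.30, SE 0.09, adjusted p = 0.0131 from edgeR). PSMB6, of the caspase-like site, had 67.9, 73.8 and 85.1 CPM against 52.8, 61.6 and 66.7 CPM, without overlap (−0.29, SE 0.08, adjusted p = 0.00834 from edgeR). The noncatalytic PSMB2, PSMB1 and PSMB4 fell by 0.49, 0.45 and 0.35 on the log2 scale, and none of the 3 overlapped between groups.

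The immune subunits did not follow the constitutive ones. PSMB10, which replaces PSMB7, rose from 17.8, 20.2 and 24.1 CPM in controls to 24.3, 27.2 and 32.6 CPM in NASH. All 6 animals with NASH were above all controls (0.43, SE 0.10, adjusted p = 0.00245 from edgeR), and PSMB10 was called higher under each scaling and with any animal left out (adjusted p at most 0.00680). PSMB9, which replaces PSMB6, had 10.2, 14.6 and 15.9 CPM in controls and 10.9, 16.3 and 19.9 CPM in NASH. Only 3 of the 6 animals with NASH exceeded the highest control, and the difference was not past the threshold (0.20, SE 0.16, adjusted p = 0.317 from edgeR). PSMB8, which replaces PSMB5, had 17.4, 20.1 and 24.1 CPM against 16.9, 19.9 and 25.2 CPM. The groups overlapped almost wholly (−0.03, SE 0.11, adjusted p = 0.812 from edgeR). With library size alone all 3 were called higher, at 0.45 for PSMB8, 0.68 for PSMB9 and 0.91 for PSMB10, where the median gene was at 0.48. Animal 2 had the highest CPM of all 12 animals for each of the 3 subunits.

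**Figure D2:**
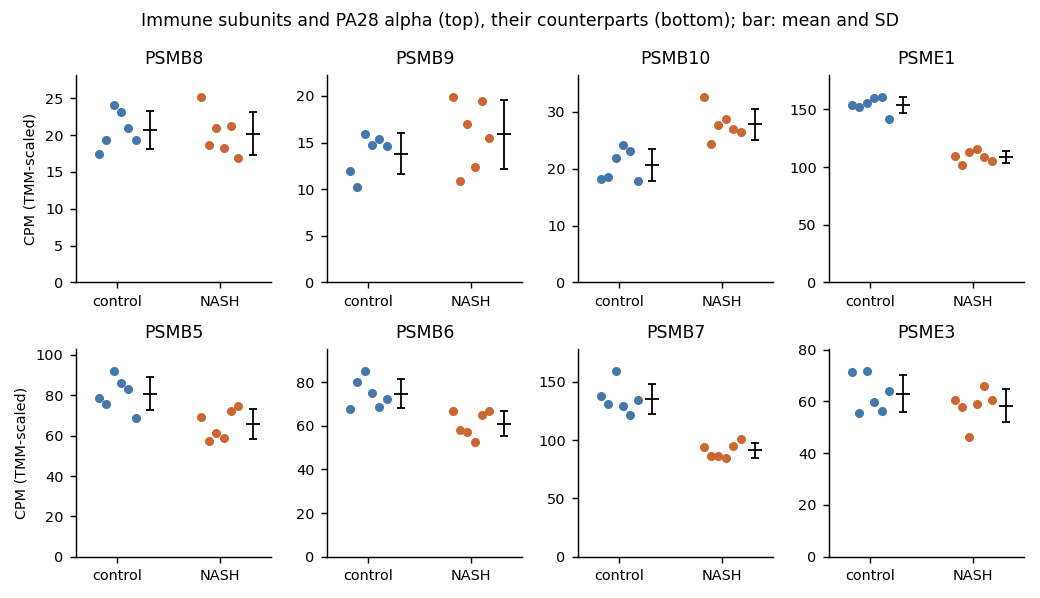
CPM in each animal (points, control left and NASH right in each panel, bar: mean and SD of 6) for the immune subunits and PSME1 (top row) and for PSMB5, PSMB6, PSMB7 and PSME3 (bottom row), each axis starting at 0. With this TMM scaling the points of PSMB10, PSME1, PSMB6 and PSMB7 separate by group, PSMB10 upwards and the others downwards, while PSMB8, PSMB9, PSMB5 and PSME3 overlap; with library size alone PSMB6, PSMB7 and PSME1 did not pass the test.

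A ratio between a pair of genes in the same animal is free of the scaling factors, and it compares their mRNA levels summed over all cells of the tissue. Subunit protein and assembled proteasomes were not measured. The ratio was compared in 4 pairs with an exact permutation test (two-sided, over all assignments of animals to groups), adjusted over the 4 pairs. The log2 ratio of PSMB10 to PSMB7 was −2.92, −2.83 and −2.39 as lowest, median and highest value in controls and −1.94, −1.73 and −1.52 in NASH. It was higher in every animal with NASH than in every control, by 1.0 on the log2 scale, that is 2.0-fold (exact p = 0.00216, the smallest that 6 against 6 allow, adjusted p = 0.00866). The ratio of PSMB9 to PSMB6 was −2.96, −2.38 and −2.14 in controls and −2.41, −1.91 and −1.73 in NASH, higher by 0.48 (exact p = 0.0152, adjusted p = 0.0202), with 5 of 6 animals with NASH above the highest control. The ratio of PSMB8 to PSMB5 was −2.17, −1.95 and −1.84 in controls and −2.13, −1.65 and −1.46 in NASH, higher by 0.27 (exact p = 0.0390, adjusted p = 0.0390). In it, too, 5 of 6 animals with NASH were above the highest control, and animal 65 lay among the lowest controls. This last difference was the least secure of the 4, since without any single 1 of 8 animals (2, 9, 11 and 20 of NASH, 5, 10, 31 and 45 of controls) its adjusted p was between 0.0584 and 0.0758 in the exact test, at differences of 0.22 to 0.27. The part that leukocytes play in these ratios was not tested, although the leukocyte markers above also separated the groups.

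**Figure D3:**
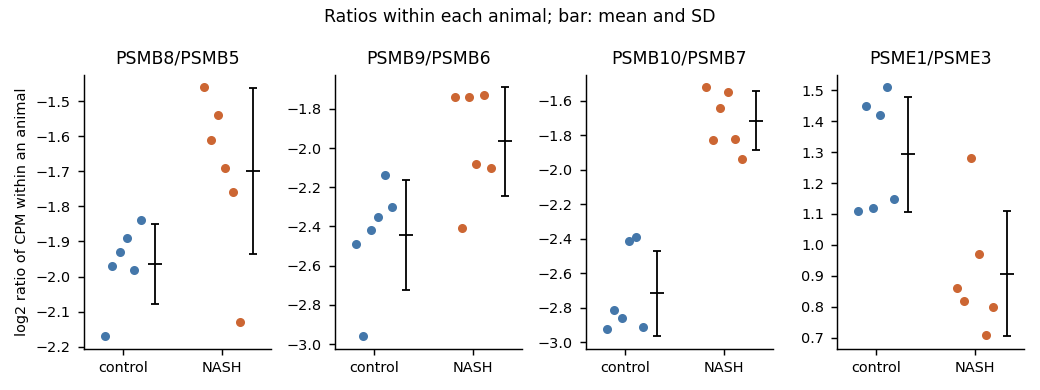
Log2 ratio of CPM between 2 genes within each animal (points), for each immune subunit over the subunit it replaces and for PSME1 over PSME3, with the mean and SD of 6 animals as a bar (each panel has its own vertical axis). The PSMB10 to PSMB7 panel shows the groups apart, at −2.92 to −2.39 in controls and −1.94 to −1.52 in NASH, and in each of the other panels the groups overlap.

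The 3 immune subunits were also set against each other, a comparison added after their values had been seen and adjusted over its 3 pairs. The log2 ratio of PSMB10 to PSMB8 ran from −0.14 to 0.14 in controls, below the 0.33 to 0.65 of NASH, higher by 0.47 without overlap (exact permutation p = 0.00216, adjusted p = 0.00649). The ratios of PSMB9 to PSMB8 and of PSMB10 to PSMB9 were higher by 0.22 and 0.25, and neither passed the threshold (both adjusted p = 0.123, exact permutation test). PSMB8 and PSMB9 lie in the MHC region, whereas PSMB10 lies elsewhere in the genome. All 3 stood alone on their count row.

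The 19S ATPases unfold substrates and feed them into the core, and all 5 measured were lower with TMM, while with library size alone none was lower and PSMC6 was called higher. PSMC1 had 112, 123 and 134 CPM in controls and 79.0, 87.0 and 89.8 CPM in NASH. The groups were well apart (−0.52, SE 0.06, adjusted p = 2.08e-05 from edgeR). PSMC5 and PSMC2 each fell by 0.49, PSMC4 by 0.33 and PSMC6 by 0.31, and of these only PSMC4 overlapped between groups.

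Of the 10 non-ATPase subunits of the 19S particle, 9 were lower and 1 was higher with TMM, but none was lower and 3 (PSMD2, PSMD7 and PSMD13) were higher with library size alone. PSMD6, a subunit of the lid, had 53.2, 56.9 and 70.0 CPM in controls and 37.7, 41.1 and 45.7 CPM in NASH (log2 fold change −0.50, SE 0.08, adjusted p = 0.00022 from edgeR). PSMD4, a receptor for ubiquitin chains, had 77.8, 84.1 and 111 CPM against 55.0, 62.3 and 71.5 CPM (−0.48, SE 0.10, adjusted p = 0.00120 from edgeR). Neither gene overlapped between groups. PSMD8 fell by 0.40, the large scaffold subunit PSMD1 by 0.39 and PSMD11 by 0.38 on the log2 scale, again without overlap. PSMD14, the deubiquitinase that strips the chain from the substrate, had 80.2, 90.1 and 105 CPM in controls and 64.6, 71.2 and 78.4 CPM in NASH, without overlap (−0.34, SE 0.08, adjusted p = 0.00253 from edgeR). PSMD3 fell by 0.34, the shuttle-docking subunit PSMD2 by 0.25 and PSMD7, the partner of PSMD14, by 0.21, all with overlap. The call of PSMD7 rested on single animals, with an adjusted p from edgeR between 0.0510 and 0.0625 without NASH animal 9, 11 or 20 or control 5 and of 0.111 with upper-quartile factors. PSMD13, a further lid subunit, went the other way, from 82.2, 86.2 and 96.2 CPM in controls to 92.9, 98 and 106 CPM in NASH. In it 5 of 6 animals with NASH exceeded the highest control (0.17, SE 0.06, adjusted p = 0.0243 from edgeR), and the call was lost without NASH animal 2, 41 or 65 or control 10 (adjusted p between 0.0526 and 0.0590).

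The caps other than the 19S particle were measured through 4 genes, of which 2 were lower with TMM, whereas 3 were higher with library size alone. PSME1, the alpha subunit of the PA28 activator and, like the immune core subunits, inducible by interferon gamma, had 142, 155 and 161 CPM in controls and 102, 109 and 116 CPM in NASH. All animals with NASH lay below all controls, at 0.71 of their level (log2 fold change −0.50, SE 0.06, adjusted p = 9.77e-06 from edgeR), and the gene lay 0.49 below the median gene with library size alone. PSME3, the PA28 subunit of the nucleus, had 55.4, 61.8 and 71.7 CPM against 46.4, 59.8 and 66.1 CPM, with overlap (−0.11, SE 0.10, adjusted p = 0.351 from edgeR). The log2 ratio of PSME1 to PSME3 within an animal was 1.11 to 1.51 in controls and 0.71 to 1.28 in NASH, lower by 0.39 (difference −0.39, exact permutation p = 0.0108, adjusted p = 0.0202), with 5 of 6 animals with NASH below the lowest control. PSME4, the PA200 activator, had 63.7, 69.5 and 93.6 CPM in controls and 75.9, 80.5 and 86.7 CPM in NASH (0.16, SE 0.09, adjusted p = 0.156 from edgeR). Control 5 held the highest value of all 12 animals, and without it the adjusted p of PSME4 was 0.00508 and the log2 fold change 0.25. It was also called higher with upper-quartile factors (0.23, adjusted p = 0.0366 from edgeR) and with every locus that had a count (0.26, adjusted p = 0.0433). PSMF1, the inhibitor PI31, had 41.9, 47.5 and 49.0 CPM against 39.3, 41.6 and 44.6 CPM (−0.16, SE 0.06, adjusted p = 0.0395 from edgeR), a call lost without any single 1 of 8 animals (adjusted p up to 0.0825), namely NASH animals 2, 9, 11 and 20 and controls 5, 10, 31 and 32, and with upper-quartile factors (0.213).

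Chaperones assemble the rings before the complex works. Of the 7 measured, 4 were lower and none was higher with TMM, and 3 (PSMG2, PSMD5 and PSMD10) were higher with library size alone. PSMG1, which starts the alpha ring together with PSMG2, had 60.2, 66.5 and 71.2 CPM in controls and 44.2, 52.8 and 57.2 CPM in NASH, without overlap (log2 fold change −0.34, SE 0.07, adjusted p = 0.00149 from edgeR). Its partner PSMG2 had 13.0, 14.8 and 16.2 CPM against 13.2, 15.3 and 18.2 CPM (0.05, SE 0.09, adjusted p = 0.633 from edgeR), so that the members of this dimer were not called alike, a difference that was not tested itself. PSMG3 had 11.9, 13.2 and 14.3 CPM in controls and 5.97, 9.91 and 11.7 CPM in NASH, and PSMG4, with which it pairs, 18.4, 21.9 and 27.6 CPM against 11.5, 17.4 and 21.5 CPM. Both were lower, PSMG3 (−0.51, SE 0.16, adjusted p = 0.0180 from edgeR) without overlap and PSMG4 with it (−0.43, SE 0.14, adjusted p = 0.0209 from edgeR). PSMD9, a chaperone of the ATPase ring, varied most of the 44 genes in controls, with a coefficient of variation of 30.8% and a range from 20.6 to 57.2 CPM against 16.7 to 30.9 CPM in NASH. Its count row carried a further symbol, so its reads may include those of another gene. It was lower (−0.62, SE 0.23, adjusted p = 0.0335 from edgeR), but did not pass without any single 1 of 6 animals (adjusted p up to 0.0822), which were NASH animals 9, 11 and 20 and controls 10, 32 and 45, or with upper-quartile factors (0.0552). PSMD5 and PSMD10, which bind ATPases as well, were not called (−0.10 and −0.20, adjusted p = 0.272 and 0.0547 from edgeR), and PSMD10 passed without NASH animal 20 or control 31 (adjusted p = 0.0362 and 0.0170).

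The 3 genes named for interacting proteins belong to none of these parts. PSMC3IP, which acts in homologous recombination, had 0.773, 1.08 and 1.54 CPM in controls and 1.48, 1.97 and 2.36 CPM in NASH, from 15 to 76 counts an animal. It rose by 0.81 on the log2 scale (SE 0.19, adjusted p = 0.00315 from edgeR), the largest rise of the 44 genes. PSME3IP1 and its copy had log2 fold changes of −0.08 and −0.30 with overlapping groups (adjusted p = 0.298 and 0.154 from edgeR), and PSME3IP1 was called higher with library size alone, at 0.40.

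Between animals of a group the constitutive subunits varied little. Their median coefficient of variation was 8.92% in controls and 7.25% in NASH, against 15.8% and 13.0% over all genes, whose median level was lower (22.0 against 83.5 CPM). Averaged over the 27 constitutive subunits, an animal's mean log2 CPM with TMM scaling ran from 6.52 to 6.74 in controls, above the 6.15 to 6.36 of NASH, whereas with library size alone the median log2 fold change of these subunits was 0.12. The mean over the 3 immune subunits ran from 3.95 to 4.35 in controls and overlapped the 4.10 to 4.67 of NASH. After removal of the group means, the median correlation over the 351 pairs of constitutive subunits was 0.52 across the 12 animals, from −0.41 to 0.95. It was 0.69 over the 3 pairs of immune subunits (0.57 to 0.75) and 0.18 over the 81 pairs that joined an immune with a constitutive subunit (−0.38 to 0.69). These correlations describe 12 animals whose values share library depth and scaling.

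Genes that work around the proteasome were followed in 7 lists, given as counts beside the 26.7% of all genes that were lower and the 27.6% that were higher with TMM. With library size alone 7.66% of all genes were lower and 63.9% higher. Of the further 26S components and maturation factors, 4 of 5 measured were lower with TMM, but none was lower and 1 was higher with library size alone. POMP, which matures the core, fell by 0.51 from 120.1 to 84.3 CPM on average (SE 0.06, adjusted p = 2.52e-05 from edgeR), and TXNL1, a thioredoxin bound to the 19S particle, by 0.62. PAAF1 fell by 0.30 and the ubiquitin receptor ADRM1 by 0.27 (adjusted p = 0.040 from edgeR, and up to 0.0903 without any single 1 of NASH animals 9, 11 and 20 and controls 31, 32 and 56), and ECPAS had the highest value, −0.10. Of the deubiquitinases, UCHL5 fell by 0.46 beside PSMD14, whereas USP14 was at 0.02 (adjusted p = 0.904 from edgeR). Among the genes that control transcription of subunits, NFE2L1, the transcription factor that raises proteasome genes when the proteasome is short, was at 0.20 (SE 0.10, adjusted p = 0.107 from edgeR, and 0.0466 without NASH animal 20). DDI2 and NGLY1, the enzymes that process it, fell by 0.70 and 0.27, with DDI2 on a row shared with another symbol, and NFE2L2 was at −0.08. With library size alone DDI2 was not called, and 3 of this list were higher, with NGLY1 among them (0.21, adjusted p = 0.0279 from edgeR). Of the 11 shuttle and VCP genes 4 were lower with TMM, whereas with library size alone none was lower and 5 were higher. TMM values ran from UBQLN4 at −0.44 (not called, but adjusted p = 0.0263 from edgeR without control 10) to FAF1 at 0.02, and VCP itself was at −0.14 (adjusted p = 0.0807 from edgeR). Of 3 ubiquitin and E1 genes only UBA6 was called, at 0.21 (adjusted p = 0.0308 from edgeR, and up to 0.0719 without any single 1 of NASH animals 2, 11, 20 and 65 and controls 31, 32 and 56). UBB had the lowest value, −0.18 (adjusted p = 0.0580, and 0.0300 to 0.0369 without NASH animal 65 or control 45), and with library size alone all 3 were called higher.

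**Figure D4:**
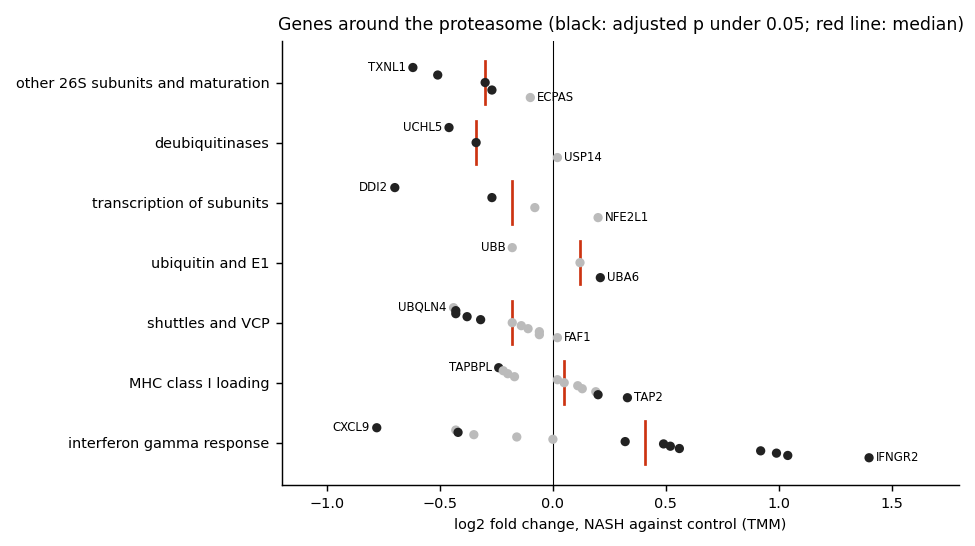
Log2 fold change with TMM scaling (horizontal axis) of the measured genes of 7 lists around the proteasome, with the lowest and the highest gene of each list named (black points: called, grey points: not called, red line: median). The proteasome components, deubiquitinases and shuttles lie mostly left of 0, although with library size alone no gene of these 3 lists was called lower, where 7.66% of all genes were. The interferon gamma list spreads from −0.78 for CXCL9 to 1.40 for IFNGR2.

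The lists closest to the immunoproteasome did not move as a block. Of 11 measured genes for the loading of MHC class I, 2 were higher, 1 was lower and 8 were not called, with a median log2 fold change of 0.05. With library size alone 9 were higher, a scaling under which 63.9% of all genes were higher and 7.66% lower. The peptide transporter subunit TAP1, a neighbour of PSMB8 and PSMB9, was at 25.9 ± 3.23 CPM in controls and 26.9 ± 3.90 CPM in NASH (SD, n = 6 each, 0.05, adjusted p = 0.717 from edgeR). TAP2, whose row carried another symbol, rose by 0.33 (adjusted p = 0.0113 from edgeR). The other higher call was TAPBP, also on a shared row, at 0.20 (adjusted p = 0.0444 from edgeR), and it was lost without any single 1 of 9 animals (adjusted p between 0.0585 and 0.0930), namely NASH animals 2, 9, 11, 20 and 41 and controls 5, 10, 31 and 56. TAPBPL, a relative of TAPBP, was lowest at −0.24 (adjusted p = 0.0343, and up to 0.0747 without any single 1 of NASH animals 2, 9 and 11 and controls 31 and 45), and with library size alone it was called higher instead (0.25, adjusted p = 0.0308). B2M, the light chain of MHC class I, was at 0.02 (adjusted p = 0.901 from edgeR). Of 14 measured genes of the interferon gamma response, 8 rose and 2 fell (median 0.41), and with library size alone 10 were higher and none lower. The receptor chain IFNGR2 rose by 1.40 without overlap. IRF1, which drives PSMB9 and TAP1, was at 0.00 (36.8 CPM on average in both groups), and CXCL9, a chemokine induced by interferon gamma, fell by 0.78 (adjusted p = 0.0231 from edgeR, and 0.0570 to 0.0577 without control 32 or 45).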

How the data were processed

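Liver mRNA of 6 controls and 6 guinea pigs with NASH was read from a single end. The authors trimmed reads with Trimmomatic 0.38.0, mapped them with HISAT2 2.1.0 to Cavpor3.0 without multimapped reads, and used StringTie 1.3.6 to assemble and quantify loci. The authors deposited raw counts per locus, named without symbols, and log2 values (rlog of DESeq2) for 11896 human orthologue symbols with at least 200 counts in total. Animals are named by the number in their sample label.

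To join symbols to counts, the rlog transformation was rerun until it returned the deposited values of all 11896 symbols (largest difference 8.4e-07), from 11031 rows, and 1515 symbols shared a row. The test was run on counts with edgeR 4.0.16 under R 4.3.3 (TMM, library size of the whole table, robust glmQLFit, glmQLFTest) over these rows, with Benjamini-Hochberg adjustment over all symbols and a threshold of 0.05. Log2 CPM values use a prior count of 2. In pairs of animals of a group the differences were at least 44.5 times the counting variance, and none was a duplicate. Each member had at least 15 counts in every animal.

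On 18422 simulated rows with 200 changed 2-fold, edgeR recovered 93% (7.46% of its calls were false), and it made 0 calls with no change. DESeq2 recovered 91%, and 12.9% of its calls were false. Few rows were changed, equally up and down, and by more than any member changed with TMM. These rates therefore do not apply to the members' calls or to their dependence on scaling. Alternatives were other scaling factors, DESeq2 1.42.0, limma-voom and limma 3.58.1 on the deposited log2 values, other filters and thresholds, and each animal left out. Named genes were the immune subunits, their counterparts, the activators, the inhibitor, and in each other group the called members up to 6 and its highest and lowest. Others were chosen after their values were seen. Members and lists were chosen with earlier results of these data known. Sequences were not used here, because the RefSeq table given (mCavPor4.1, 43 of 44 symbols matched) holds none. P-values measure the spread between animals.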

Additional observations from a re-analysis of the deposited data

Results flagged for a closer look

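In groups of 6, a sample was singled out when its gap to the nearest other exceeded 0.625 of the group's range in log2 CPM (Dixon's 95% value). Of 96 groups tested (44 genes and 4 ratios in controls and in NASH), 10 (10.4%) held such a sample. Chance gives about 1 in 20 for a single group, but the 96 groups share the same animals and hold correlated genes. Whether 10 is more than chance gives was therefore not tested. Control 5 stood above the other controls for PSMA3 (7.11 against 6.89 to 6.96), PSMD7 (6.54 against 6.23 to 6.30) and PSME4 (6.55 against 5.99 to 6.19). Control 31 did so for PSMD4 (6.80 against 6.28 to 6.46), PSMB3 (6.93 against 6.43 to 6.59) and PSMD3 (6.59 against 6.08 to 6.27). Animal 9 stood below the other animals with NASH for PSMA3 (6.47 against 6.64 to 6.73), PSMC1 (6.31 against 6.42 to 6.49) and PSMA5 (5.80 against 5.94 to 6.02). Animal 20 did so for PSMA1 (5.83 against 6.20 to 6.33).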

How the results depend on the processing

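With library size alone in place of TMM factors, 19 of the 44 proteasome genes were called instead of 34 (over all genes 71.5% instead of 54.2%). They were 3 alpha, 1 constitutive beta and 3 immune subunits, 1 ATPase and 3 non-ATPase subunits of the 19S particle, 3 activators or inhibitor, 3 chaperones and 2 interacting proteins. Of the related lists it called 1 further 26S gene, 1 deubiquitinase, 3 ubiquitin and E1 genes and 9 MHC class I loading genes. The median gene moved from −0.01 to 0.48, while the members' values relative to the median gene stayed nearly the same. Under this scaling the log2 fold change of 26 genes changed sign where it or the TMM value was called, to 0.31 for PSMA1, 0.17 for PSMA3, 0.23 for PSMA4, 0.12 for PSMA5, 0.06 for PSMA7, 0.03 for PSMB1, 0.13 for PSMB4, 0.18 for PSMB5, 0.19 for PSMB6, 0.45 for PSMB8, 0.15 for PSMC4, 0.18 for PSMC6, 0.09 for PSMD1, 0.23 for PSMD2, 0.14 for PSMD3, 0.38 for PSMD5, 0.28 for PSMD7, 0.08 for PSMD8, 0.29 for PSMD10, 0.11 for PSMD11, 0.15 for PSMD14, 0.38 for PSME3, 0.40 for PSME3IP1, 0.32 for PSMF1, 0.14 for PSMG1 and 0.05 for PSMG4. Against a log2 fold change of 0.5, 1 of the 44 genes was called, which was 1 constitutive beta subunit, and 0 of the alpha, immune, ATPase and non-ATPase subunits, 0 activators and 0 chaperones. Of all 11896 genes, 2663 were called in that test (1686 higher and 977 lower). At an adjusted p under 0.01, 26 of the 44 genes were called (24 lower and 2 higher), with 1 of the activators and inhibitor and 1 chaperone among them. With every locus that had a count, 1 chaperone, 2 further 26S genes and 2 ubiquitin and E1 genes were called, and 2 of the latter also with upper-quartile factors and with DESeq2. RLE factors, filterByExpr, limma-voom and limma on the deposited values changed no member's call, and DESeq2 added PSMD10 (adjusted p = 0.0491). Upper-quartile factors ended the calls of PSMD7, PSMD9 and PSMF1 and added PSME4. With each animal left out, 30 of the 34 called genes passed each time, counts ran from 1 to 2 for the activators and inhibitor, 0 to 2 for ubiquitin and E1 and 1 to 3 for MHC class I loading, and the log2 ratio of PSMB8 to PSMB5 differed by 0.22 to 0.35. Without NASH animal 9, the ratio of PSMB9 to PSMB8 differed by 0.30 (exact permutation test, adjusted p = 0.0390). The cause of these changes was not tested. The animals had been randomised in blocks of body weight, but the labels do not give the blocks, so no paired analysis was possible. PSMC3IP, with 15 to 76 counts an animal, and PSME3IP1.1, with 22 to 63, had the fewest counts of the 44 genes.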
